A study of Danio rerio with 8 samples.

Results

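The miR-430 family was measured in zebrafish embryos at 72 hours post fertilization (hpf) with a miRNA array. Its members were taken as every probe named dre-miR-430 plus 1 letter, without a star, and these were dre-miR-430a, dre-miR-430b, dre-miR-430c, dre-miR-430i and dre-miR-430j, 5 of the 248 zebrafish miRNA probes on the chip. All 5 passed the filter on low signal, which left 187 probes for testing. Control embryos were treated with saline solution and the other group with microcystin-RR (MC-RR), a cyclic peptide toxin of cyanobacteria with arginine at both variable positions, which the study microinjected into the yolk of cleavage-stage embryos to examine its toxicity to development. There were 4 arrays of total RNA per group, numbered as replicates 1 to 4 and described by the submitters as biological replicates of paired treated and control embryos. The labels give no strain, no number of embryos per sample and no spawning, so the p-values measure the spread between these samples.

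MiR-430 is the miRNA family that zebrafish embryos switch on when their own genome becomes active, and it is known for driving the deadenylation and clearance of maternal transcripts. It also tunes Nodal signalling through both an agonist (squint) and an antagonist (lefty) of that pathway, and restrains chemokine signalling during primordial germ cell migration. Like other miRNAs it finds its targets mainly through its seed, the bases near its 5′ end, so members with the same seed are expected to share many targets. The family belongs to the same seed group as mammalian miR-302, miR-372 and the miR-290 cluster, which mark early embryos and pluripotent cells.

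The sequences that the chip lists for the 5 members are shown because they set both the seed and how far the probes can be told apart. They are written 5′ to 3′ with the seed, bases 2 to 8, in capitals.
dre-miR-430a: uAAGUGCUauuuguugggguag
dre-miR-430i: uAAGUGCUauuuguuggcguag
dre-miR-430b: aAAGUGCUaucaaguugggguag
dre-miR-430j: aAAGUGCUaucaaauuggggua
dre-miR-430c: uAAGUGCUucucuuugggguag

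The seed was the same in all 5 members, and its 7 bases were also the longest run that all of them shared. The members fell into 2 close pairs, with dre-miR-430c apart. Counting from 1 at the 5′ end, dre-miR-430a and dre-miR-430i differed by the single substitution G18C. The pair dre-miR-430b and dre-miR-430j differed by G14A, and dre-miR-430j was 1 base shorter. For dre-miR-430c the fewest edits to another member were 4, to dre-miR-430a. In RefSeq (GRCz12tu), 58 gene copies carry the names of 4 members, 18 of dre-miR-430a, 19 of dre-miR-430b, 18 of dre-miR-430c and 3 of dre-miR-430i, and 57 of the 58 lie on 1 chromosome. A copy of dre-miR-430a followed by one of dre-miR-430c and one of dre-miR-430b occurred 6 times along it. The mature sequences of the copies were not compared here.

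The signal of a probe is the mean fluorescence of its 10 repeat spots in arbitrary units. On each array, background was read from 206 blank spots, and also from 13 probes for miRNAs of the worm Caenorhabditis elegans. A probe counted as detected on an array when its signal was above the 95th percentile of the blank spots. Between 71 and 197 zebrafish probes were detected per control array and between 157 and 224 per MC-RR array. Control replicate 4 had bright blank spots, with a median of 179 against a worm-probe median of 36.6, and it was the array with 71 detected probes. The blank median was also well above the worm-probe median on control replicate 2 (126 against 76.4) and MC-RR replicate 4 (91.9 against 41.7). These arrays had 152 and 157 detected probes. MC-RR replicate 2 was least like the others, with a median correlation of 0.796 against 0.888 to 0.952 for the other 7 arrays. Of 16 miRNAs typical of embryonic tissues (muscle, nerve, liver, skin, lens, vessel, blood and epithelium), 15 passed the filter, and the blood miRNA dre-miR-144 was detected on 0 arrays. The number of arrays limits the precision.

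All 5 members gave signal well above the worm probes at 72 hpf. Over the 40 values of 5 members on 8 arrays, the signal was 4.38 to 182 times the worm-probe median, and 39 of the 40 were above the blank threshold. The exception was dre-miR-430c on control replicate 4, the array with the bright blank spots.

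The dre-miR-430a signal before normalization was 6426, 1492, 3870 and 1354 in controls, in the order of replicates 1 to 4, and 13780, 3163, 8569 and 4107 with MC-RR. For dre-miR-430b it was 4857, 1708, 3646 and 2058 in controls and 9270, 2850, 8287 and 4241 with MC-RR. For dre-miR-430j it was 3601, 1278, 3015 and 1151 in controls and 6737, 2141, 6552 and 2624 with MC-RR. In these 3 bright members the arrays of replicates 1 and 3 were the high ones in both groups, and the groups overlapped. The dre-miR-430i signal was 1858, 356, 1209 and 704 in controls and 2537, 994, 1968 and 1810 with MC-RR. The dre-miR-430c signal was 511, 389, 606 and 160 in controls and 2544, 554, 1497 and 410 with MC-RR. Before normalization each member was higher with MC-RR than in the control of the same replicate number in all 4 pairs. These raw signals include the brightness and the background of the array. On the MC-RR array of replicate 1 the worm-probe median was 158, against 73.9 in its control. It lay near the blank medians of these arrays, 166 and 76.6, so it reads their background. The median zebrafish probe was 384 against 251. Relative to the worm-probe median, dre-miR-430b (58.6 against 65.7), dre-miR-430j (42.6 against 48.7) and dre-miR-430i were lower with MC-RR in replicate 1. There dre-miR-430a (87.1 against 86.9) and dre-miR-430c were higher. In replicates 2 to 4 every member was higher on this scale, which divides by a background level. After normalization the log2 differences in replicate 1 were 0.47 for dre-miR-430b, 0.47 for dre-miR-430j and 0.04 for dre-miR-430i. The repeat spots of a member varied with a coefficient of variation of 4.60% to 16.4% within an array (median 10.9%), beside a median of 9.03% over all probes tested.

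After background correction and normalization on the log2 scale, dre-miR-430c had the highest log2 difference of the family. Its normalized log2 signal was 9.10, 8.14, 8.58 and 8.04 in controls, in the order of replicates, and 10.98, 9.79, 10.04 and 8.91 with MC-RR. It was above the blank threshold on 3 of the 4 control arrays and all 4 MC-RR arrays. With MC-RR, 3 of 4 arrays lay above every control, and replicate 4 lay below control replicate 1. The log2 difference between groups was 1.46 with a standard error of 0.43 (limma p = 0.00949, adjusted p = 0.427 over 187 probes by Benjamini-Hochberg; exact permutation p = 0.0571, two-sided). In a bulk sample such as a whole embryo, a change in the number of cells of a type and a change in RNA per cell cannot be told apart, here or for the other members.

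For dre-miR-430a the normalized log2 signal was 12.39, 10.35, 11.19 and 11.01 in controls and 13.03, 12.09, 12.37 and 11.91 with MC-RR. Control replicate 1 lay above 3 of the MC-RR arrays, while the other 3 controls lay below all of them. The log2 difference was 1.11 with a standard error of 0.43 (limma p = 0.0327, adjusted p = 0.434; exact permutation p = 0.114). For its near copy dre-miR-430i the signal was 10.78, 8.06, 9.53 and 10.06 in controls and 10.82, 10.54, 10.33 and 10.90 with MC-RR. It had the widest control group of the 5, with an SD of 1.15 and control replicate 2 as its low array, and its log2 difference of 1.04 had a standard error of 0.52 (limma p = 0.0788, adjusted p = 0.737; exact permutation p = 0.0857). It was the member that did not reach an unadjusted p of 0.05.

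For dre-miR-430b the normalized log2 signal was 11.98, 10.54, 11.10 and 11.61 in controls and 12.46, 11.94, 12.32 and 11.97 with MC-RR. Its log2 difference was 0.86 with a standard error of 0.31 (limma p = 0.0239, adjusted p = 0.427; exact permutation p = 0.0857). For dre-miR-430j the signal was 11.60, 10.07, 10.82 and 10.79 in controls and 12.07, 11.56, 12.00 and 11.34 with MC-RR, with a log2 difference of 0.92 and a standard error of 0.33 (limma p = 0.0222, adjusted p = 0.427; exact permutation p = 0.0857). In both, control replicate 1 was the control that reached into the MC-RR range, and control replicate 2 was the lowest array. The smallest p that the exact test allows with 4 arrays against 4 is 0.0286.

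**Figure D1:**
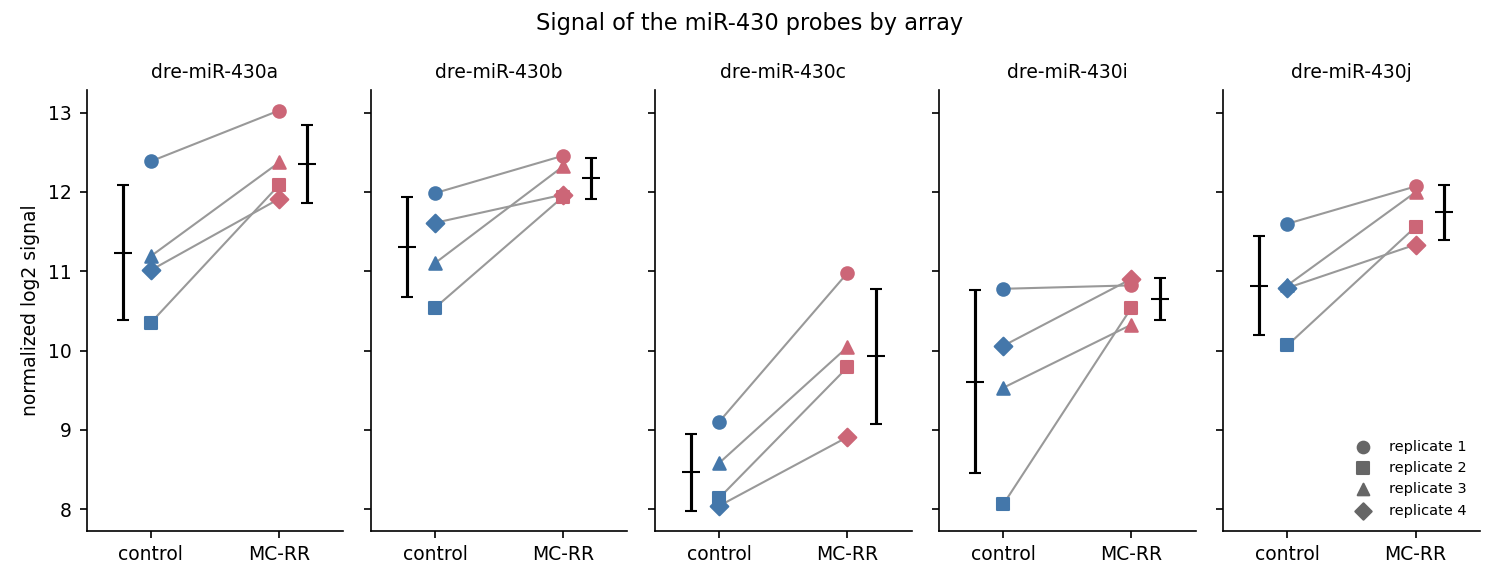
Normalized log2 signal of each miR-430 probe on the 4 control and 4 MC-RR arrays. Symbols give the replicate number, grey lines join arrays of the same number, and black bars show the group mean and SD (n = 4). Every line goes up, and in each panel the highest control lies within the MC-RR range.

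In total 4 of the 5 members were higher with MC-RR at an unadjusted limma p under 0.05, while 8 of all 187 probes (4.28%) were. After adjustment none of the members passed, nor did any other probe (0%), although 16 passed without adjustment, 8 higher and 8 lower. The split moved with the scaling. Quantile normalization gave 9 calls up and 3 down, scaling to the median gave 9 and 2, the deposited normalized values 8 and 4, no scaling between arrays 3 and 0, and scaling to 5S rRNA 15 and 0. The median of all 187 probes moved from -0.06 to 0.05, 0.10, 0.06, -0.11 and 0.53 in the same order. Relative to it the mean log2 difference of the members was 1.14 in the main fit. With quantile normalization it was 1.12 and with the deposited values 1.15. It was 1.22 with median scaling, no scaling and 5S scaling. These settings differ only by a constant per array, so that value is the same by construction. None of the members had groups without overlap, while 4 of the 187 probes (2.14%) did in this direction. All 5 were higher in each of the 4 pairs of replicate numbers, as were 24 of the 187 probes (12.8%). The 5 members share their array and their normalization, and near-identical probes may share signal, so they are not 5 independent measurements.

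In order of the log2 difference the members ranked 2, 4, 5, 7 and 8 among the 187 probes, for dre-miR-430c, dre-miR-430a, dre-miR-430i, dre-miR-430j and dre-miR-430b. Neighbours in that order differed by less than the standard error of either member's own log2 difference. That is not the error of a comparison between members, which was made within arrays and is given below. The median log2 difference of the members was 1.04, beside -0.06 over all probes tested. The mean of the 5 log2 signals was 10.29 ± 0.71 (SD, n = 4) in controls and 11.37 ± 0.37 (SD, n = 4) with MC-RR.

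Arrays with the same replicate number were taken as pairs, as the series text calls the embryos paired. Their deviations from their groups were positively correlated in every pair. Arrays with unlike numbers were not compared, so these correlations do not show what a number stands for. With this pairing as a replicate block, the standard errors were 0.20 for dre-miR-430a, 0.22 for dre-miR-430b, 0.19 for dre-miR-430c, 0.41 for dre-miR-430i and 0.21 for dre-miR-430j. The blocked limma p was 0.00284, 0.0120, 0.000621, 0.0527 and 0.00760 in the same order, so the same 4 members passed without adjustment. Over all probes 30 passed in place of 16, of which 11 were higher with MC-RR (5.88%), and still none passed after adjustment, where dre-miR-430c had the lowest value of the family (adjusted p = 0.0958). The log2 differences within pairs had the smallest SD for dre-miR-430c, 0.43, at 1.88, 1.65, 1.46 and 0.87 for replicates 1 to 4. They had the largest SD for dre-miR-430i, 1.03, at 0.04, 2.48, 0.80 and 0.85. In the 4 members other than dre-miR-430c the highest difference within a pair was that of replicate 2, and control replicate 2 was their lowest array.

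**Figure D2:**
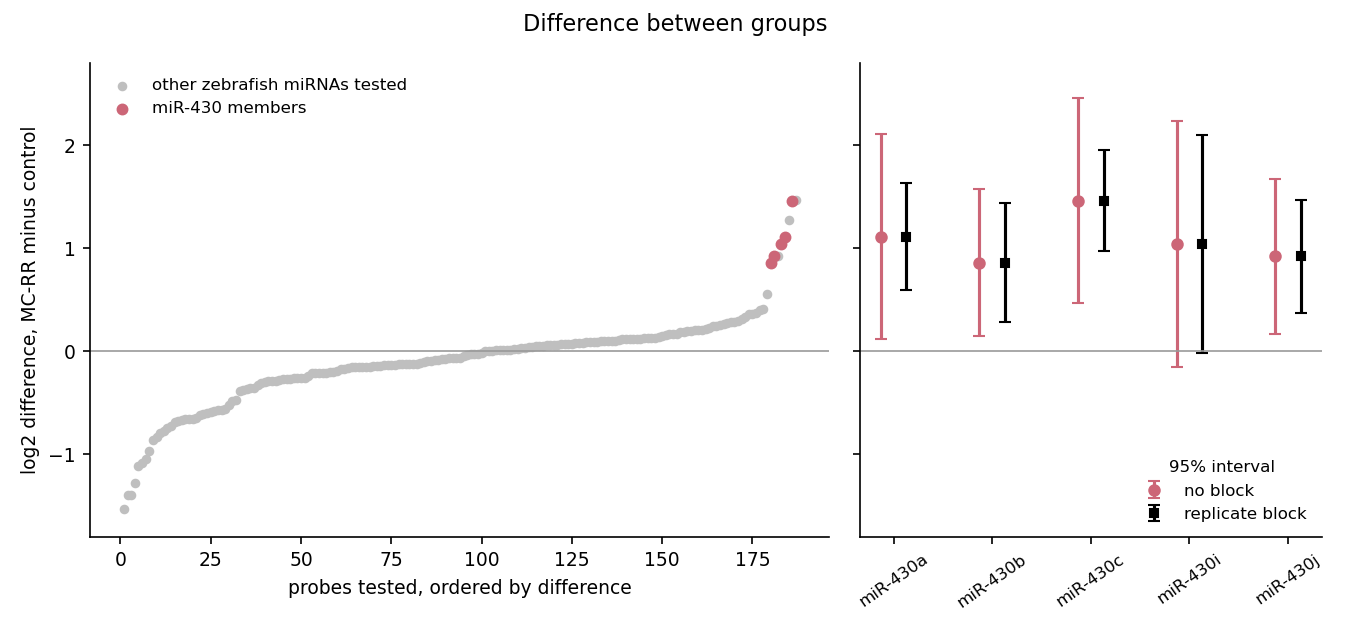
Left, the log2 difference between groups (MC-RR minus control) of the 187 probes tested, in order, with the 5 miR-430 members in red. Right, the members with their 95% limma intervals without and with a replicate block. The members lie between 0.86 and 1.46, and the interval of dre-miR-430i includes 0 in both fits.

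Single arrays decided whether the members other than dre-miR-430c passed. With any single array left out, dre-miR-430c kept an unadjusted limma p under 0.05 (highest 0.0289). Without MC-RR replicate 1, or without MC-RR replicate 3, it was the 1 of the 5 members that passed. Without control replicate 3, 2 members passed. Of all 187 probes, 4 were higher with MC-RR at that p without each of these arrays in turn. The log2 difference of dre-miR-430i was 0.53 without control replicate 2 and 1.43 without control replicate 1, where it passed without adjustment. With both doubted arrays left out, MC-RR replicate 2 and control replicate 4, 2 members passed. The count over all probes was not made for this fit. The mean log2 difference of the 5 members in it was 1.15, near the 1.08 with all arrays. The fold of dre-miR-430c had the weakest footing in signal. Subtracting the blank median with a floor of 1 in place of the background model gave it a log2 difference of 2.83 that did not reach an unadjusted limma p of 0.05. On control replicate 4 its signal lay below the blank median.

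The chip also allowed the members to be set against the 5S rRNA, the reference that the study used for its qPCR. The 5S probes gave a mean of 14803, 11515, 12868 and 9258 in controls and 6631, 5084, 14011 and 8040 with MC-RR. They were lower with MC-RR in 3 of the 4 pairs. Scaled to these probes, the mean log2 difference of the members was 1.75. The median of all 187 probes moved up with it. Relative to that median the mean was 1.22, by construction the same as without scaling between arrays. On this scale all 5 members passed after adjustment (limma, adjusted p under 0.05), among 7 of the 187 probes (3.74%), all higher with MC-RR. The difference of the 5S signal between groups adds to every probe on this scale. This scaling was chosen after the data had been seen.

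To describe the make-up of the family at 72 hpf, each member's signal above the blank median was divided by the sum over the 5 members on the same array. This cancels the brightness of the array. Probes bind unequally, so a share is one of signal and not of molecules. A larger share does not show that a member was more abundant than another. The dre-miR-430a probe gave 37.6%, 29.7%, 31.6% and 25.9% of the family signal in controls, in the order of replicates, and 40.0%, 32.9%, 32.0% and 31.5% with MC-RR. Its mean was 31.2 ± 4.89% in controls and 34.1 ± 3.97% with MC-RR (SD, n = 4; exact permutation p = 0.371), and in all 4 pairs the MC-RR array had the larger share.

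The dre-miR-430b probe gave 28.3%, 34.4%, 29.8% and 41.5% in controls and 26.7%, 29.6%, 30.9% and 32.6% with MC-RR, with means of 33.5 ± 5.92% and 30.0 ± 2.47% (SD, n = 4; exact permutation p = 0.343). The dre-miR-430j probe gave 20.9%, 25.1%, 24.5% and 21.4% in controls and 19.3%, 22.1%, 24.4% and 19.9% with MC-RR, with means of 23.0 ± 2.12% and 21.4 ± 2.33% (SD, n = 4; exact permutation p = 0.343). Its share was lower with MC-RR in all 4 pairs, with a mean difference of -1.55 points and an SD over pairs of 1.16. Together dre-miR-430a, dre-miR-430b and dre-miR-430j made up 84.0% to 89.3% of the family signal on every array. With the worm probes as background the range was 83.5% to 87.8%.

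The other 2 members gave the rest. The dre-miR-430i probe gave 10.6%, 5.02%, 9.54% and 11.6% in controls and 6.97%, 9.99%, 7.22% and 13.5% with MC-RR, with means of 9.18 ± 2.89% and 9.42 ± 3.04% (SD, n = 4; exact permutation p = 0.914). The dre-miR-430c probe gave 2.57%, 5.73%, 4.55% and -0.43% in controls and 6.99%, 5.34%, 5.45% and 2.50% with MC-RR, with means of 3.11 ± 2.69% and 5.07 ± 1.87% (SD, n = 4; exact permutation p = 0.314). The negative share on control replicate 4 is a signal of 160 under a blank median of 179. With the worm probes as background that share was 2.35%, and the means were 4.00 ± 1.92% and 5.17 ± 1.73% (exact permutation p = 0.371). No member's share separated the groups. With the arrays paired by number, the exact sign-flip p was 0.125 for dre-miR-430a and for dre-miR-430j, which is the smallest that 4 pairs allow, so a change in their shares could not reach a p of 0.05 in this test. Single arrays moved the differences between groups. That of dre-miR-430a, 2.88 points, was 0.92 without MC-RR replicate 1, 1.11 without control replicate 4 and 5.01 without control replicate 1. That of dre-miR-430b, -3.53 points, was -0.88 without control replicate 4, the array with the bright blank spots, and -5.26 without control replicate 1. That of dre-miR-430c, 1.96 points, was 0.79 without control replicate 4, and that of dre-miR-430i, 0.24 points, was -1.14 without control replicate 2 and -1.12 without MC-RR replicate 4.

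**Figure D3:**
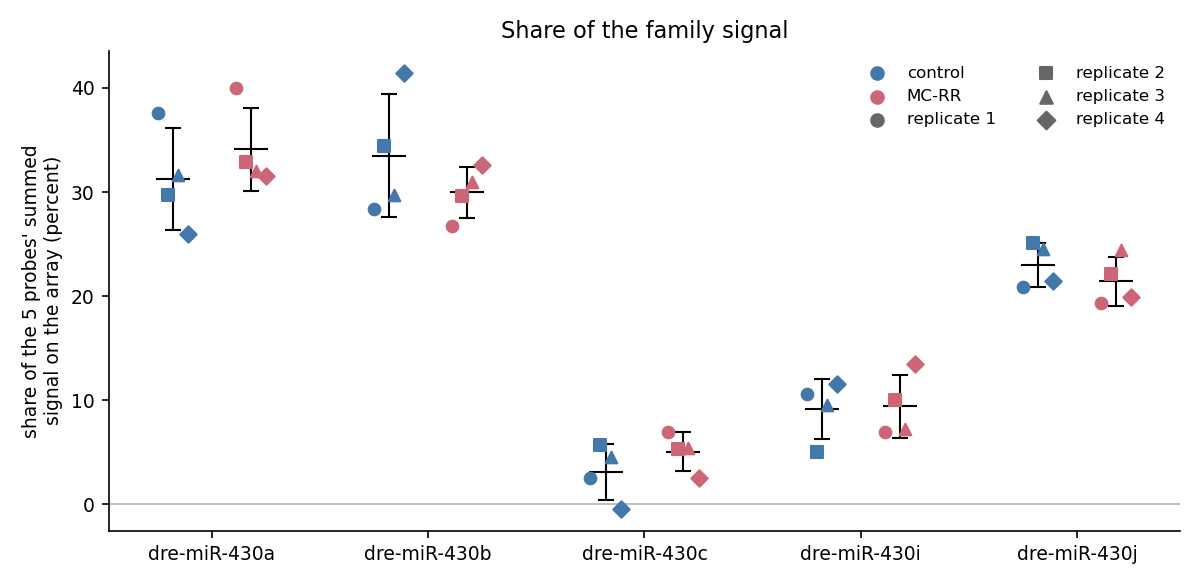
Share of each member in the summed background-subtracted signal of the 5 miR-430 probes on an array, in percent. Points are arrays, symbols give the replicate number, and black bars show the group mean and SD (n = 4). The groups overlap for every member, and dre-miR-430c on control replicate 4 lies just below 0.

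Whether 1 member changed more than another was tested with the difference of their normalized log2 signals within an array, for all 10 pairs. The exact permutation p ranged from 0.171 to 0.971, with a lowest adjusted p of 0.743 over the 10 pairs, and none of the pairs had groups without overlap. The largest change was in dre-miR-430b minus dre-miR-430c, which went from 2.84 ± 0.53 in controls to 2.24 ± 0.65 with MC-RR (SD, n = 4; exact permutation p = 0.2), lower in 4 of 4 pairs. The size of this change, 0.60, was 0.35 without MC-RR replicate 1, 0.36 without control replicate 4 and 0.38 without normalization between arrays, and 1.86 with the blank median subtracted. The difference dre-miR-430c minus dre-miR-430j went from -2.35 ± 0.35 to -1.81 ± 0.55 (exact permutation p = 0.171), higher in 4 of 4 pairs. P-values of this size do not show that the members changed alike.

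Members followed each other across arrays to different degrees. Over the 8 arrays, as a description that includes the difference between groups, the correlation of normalized log2 signals was 0.98 between dre-miR-430a and dre-miR-430j and 0.96 between dre-miR-430b and dre-miR-430j. The lowest was 0.59, between dre-miR-430c and dre-miR-430i. The within-array difference of dre-miR-430b and dre-miR-430j had an SD of 0.18 over the 8 arrays, the smallest of the 10 pairs, and these are the near-identical pair with G14A. The other near-identical pair, dre-miR-430a and dre-miR-430i, had an SD of 0.50. Its difference ranged from 0.95 to 2.29 over the arrays, so these 2 probes, which differ by 1 base, did not give signal in a fixed ratio.

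The chip also carries control probes as pairs of match and mismatch, which do not gauge how far the member probes separate their targets. Their signals were compared without background subtraction, and some pairs have the same match probe. Among 11 such pairs whose match probe gave more than 1000 on every array, the mismatch probe gave 0.452% to 76.4% of its match, and in 7 pairs it stayed under 10% on every array. The pair named PUC2 gave 44.8% to 76.4%. The files do not say where in the probe the mismatch lies, so shared signal between dre-miR-430a and dre-miR-430i, or between dre-miR-430b and dre-miR-430j, was not tested.

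Probes from other species showed whether a shared seed came with signal. Some of them also share bases with a member beyond the seed. The chip held 5 probes outside the family with the same bases 2 to 8, hsa-miR-372 and hsa-miR-373 of human and mmu-miR-291a-3p, mmu-miR-294 and mmu-miR-295 of mouse, all from clusters active in early embryos. Those closest to the family are shown to compare their 3′ parts, again with bases 2 to 8 in capitals. They are followed by dre-miR-17a, which is not one of these 5 probes.
hsa-miR-373: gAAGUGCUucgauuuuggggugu
mmu-miR-294: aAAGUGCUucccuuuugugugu
dre-miR-17a: cAAAGUGCuuacagugcaggua

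Both hsa-miR-373 and mmu-miR-294 stood 6 edits from the nearest member. The 5 probes gave 0.958 to 1.15 times the worm-probe median, with 2 of their 40 array values above the blank threshold. In these 5 probes the shared seed came with signal near background. They stood 6 to 8 edits from the nearest member, while members differ from each other by as little as 1 edit. They therefore do not test shared signal between members. The third sequence, dre-miR-17a, carries the letters AAGUGCU 1 base further from its 5′ end, so that its seed is another one. It belongs to the miR-17 family, which is known for promoting cell proliferation, and it stood 7 edits from the nearest member.

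**Figure D4:**
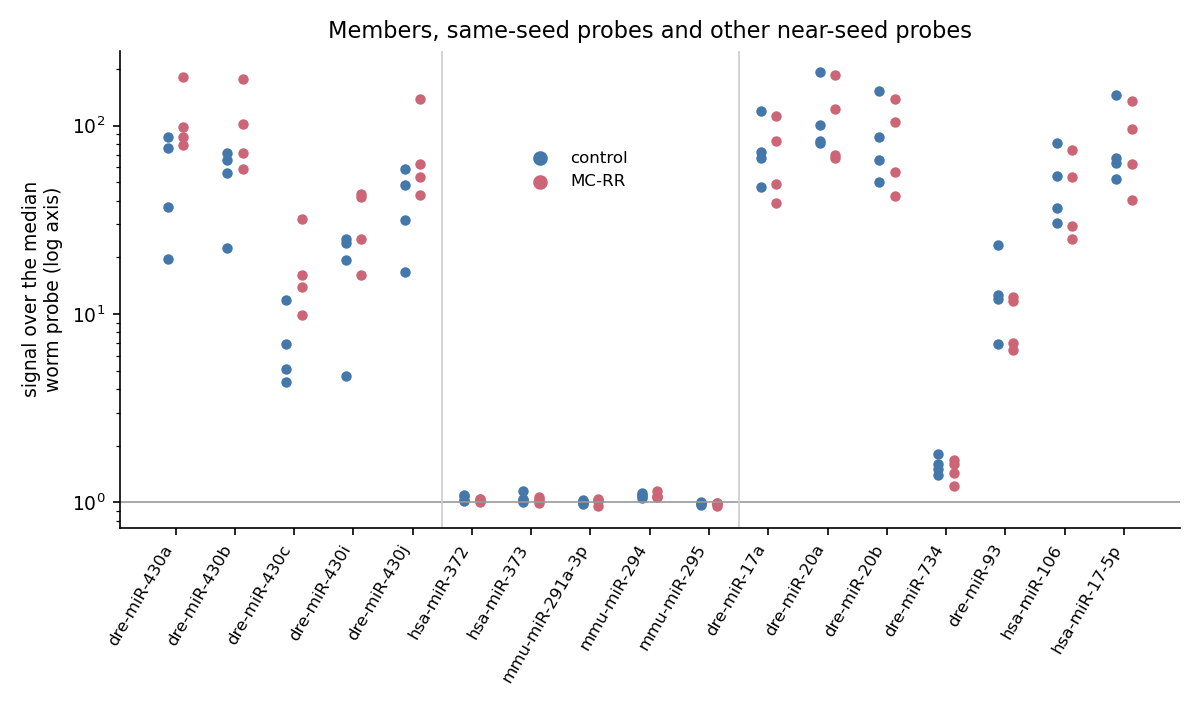
Signal over the worm-probe median (log axis) of the 5 members (left), of the 5 probes with the same seed from human and mouse (middle), and of other probes with the same or a similar run of letters within their first 9 bases (right), for 4 control and 4 MC-RR arrays each. The same-seed probes lie at about 1 on every array, while the members lie between 4.38 and 182.

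The probes with the shifted letters AAGUGCU had log2 differences between -0.28 and -0.15 where they were tested. The signal of dre-miR-17a was 38.9 to 120 times the worm-probe median and its log2 difference was -0.21 with a standard error of 0.16 (limma adjusted p = 0.857). For dre-miR-20a the log2 difference was -0.17 (standard error 0.18), for dre-miR-20b -0.15 (standard error 0.17) and for dre-miR-93 -0.28 (standard error 0.45). Of the probe dre-miR-734, with the letters AAAUGCU, the signal was 1.22 to 1.80 times the worm-probe median and the log2 difference -0.06. The human probes hsa-miR-17-5p, whose listed sequence begins with all of dre-miR-17a, and hsa-miR-106 were bright, at 24.9 to 145 times that median. Of the 7 miRNAs listed for the miR-17 group (dre-miR-17a, dre-miR-18a, dre-miR-18b, dre-miR-18c, dre-miR-20a, dre-miR-20b and dre-miR-93), 0 passed an unadjusted limma p of 0.05 in either direction, while 16 of all 187 probes (8.56%) did, and 0 passed with the block, while 30 of the 187 (16%) did. A count of 0 of 7 is near these shares. Their median log2 difference was -0.15, with a range of -0.28 to 0.12. The difference between these families was not tested.

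The tissue miRNAs are given beside the family because the sample is a whole embryo. Of the 15 tissue miRNAs tested, 0 were higher and 1 was lower with MC-RR at an unadjusted limma p under 0.05, the endothelial dre-miR-126, at a log2 difference of -0.66 with a standard error of 0.20 (limma adjusted p = 0.427). With the block the muscle miRNA dre-miR-206 passed as well, at -0.59. Over all 187 probes 8 were lower without the block (4.28%) and 19 with it (10.2%), so 1 and 2 of 15 are near the background. Their median log2 difference was -0.36, beside -0.06 over all probes, and 4 of the 15 were above 0, beside 46.5% of all probes. The lowest values were those of muscle dre-miR-1 at -1.40 (standard error 1.08) and skin dre-miR-203a at -1.40 (standard error 1.22). The 4 above 0 were the blood miRNA dre-miR-451 at 0.23 and the epithelial dre-miR-200a at 0.21, dre-miR-429 at 0.11 and dre-miR-200b at 0.10. The summed normalized signal of the 16 markers ranged from 64863 to 93851 in controls and from 43779 to 67637 with MC-RR. This linear sum is weighted to the brightest probes and includes the undetected dre-miR-144, so it does not describe each marker. These miRNAs mark differentiated tissues, and their part in the differences of the miR-430 family was not tested.

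Outside the family, the signals most like the mean of the 5 members over the 8 arrays were found by Pearson correlation over the 182 other probes, whose median was -0.06. The highest were dre-miR-18c (r = 0.84, Spearman rho = 0.88), dre-miR-210* (0.83 and 0.90), dre-miR-21 (0.82 and 0.83), dre-miR-182 (0.78 and 0.81) and dre-miR-146a (0.75 and 0.64). MiR-21 and miR-146a are known from stress and inflammation, miR-210 from hypoxia and miR-182 from sensory organs. Of these, dre-miR-21 and dre-miR-146a also had high log2 differences between groups, at 1.47 and 1.27, and their correlation within groups was lower, at 0.56 and 0.30. For dre-miR-182 the log2 difference was 0.41 and the correlation within groups 0.45, and for dre-miR-210* they were 0.33 and 0.71. For dre-miR-18c the log2 difference was 0.12 and the correlation within groups 0.84.

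The lowest correlations were those of dre-miR-726 (r = -0.94, Spearman rho = -0.81), dre-miR-100 (-0.87 and -0.86), dre-miR-129* (-0.86 and -0.86), dre-miR-125b (-0.83 and -0.83) and dre-miR-125c (-0.82 and -0.81). MiR-100 and miR-125 are known for accumulating as cells differentiate. Within groups these 5 gave -0.94, -0.73, -0.78, -0.66 and -0.75. Without control replicates 2 and 3, the arrays farthest from the median of the family mean, they gave -0.90, -0.74, -0.71, -0.79 and -0.76, and the 5 highest gave 0.75, 0.95, 0.94, 0.69 and 0.79 in the order above. The points share arrays and normalization, and these 10 were picked as the extremes of 182.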

How the data were processed

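Total RNA of 8 samples was size-fractionated, tailed and hybridized by a service provider, 1 sample with Cy5 per array. The authors deposited the scanner output, which gives the mean pixel density of each spot without background subtraction (read here as a linear signal), and a table with 1 background-subtracted, LOWESS-normalized intensity per probe; the authors' image software was Array-Pro. The scanner output was analysed with R 4.3.3 and limma 3.58.1, and figures were drawn with Python 3.11.15 and matplotlib 3.10.9. Background was modelled by normexp (offset 50) over all spots, log2 values were averaged over a probe's spots, and cyclic loess over the 248 zebrafish probes brought the arrays together. A probe was kept if 4 or more arrays had it over the blank spots' 95th percentile (187 probes). The group test was limma's moderated linear model, with Benjamini-Hochberg adjustment over these probes, and single values with the two-sided exact permutation test over arrays. No member's p was adjusted over the family alone.

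The correlation of deviations from group means between same-numbered arrays was 0.58, 0.29, 0.53 and 0.78 for replicates 1 to 4, and the series text calls the embryos paired. Alternatives were other normalizations, backgrounds, offsets, filters, spot summaries, the deposited table on the log2(value + 1) scale, the replicate block, the methods' t-test, and arrays left out. The fit without a block was tested on simulated data with independent noise of the same SD for all probes. The blocked fit was not tested in this way. Named probes were the members, probes holding AAGUGCU or AAAUGCU within their first 9 bases, the 5 highest and 5 lowest correlated miRNAs, and fixed lists of miR-17 and tissue miRNAs. The members and lists were chosen with earlier results of these data known. The numbers of gene copies come from RefSeq; the files name no genome build, so no coordinates are given.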

Additional observations from a re-analysis of the deposited data

Results flagged for a closer look

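The share of dre-miR-430a in the family signal had 1 MC-RR array far from the others. It was 40.0% on MC-RR replicate 1 and 31.5% to 32.9% on the other 3, and the gap made up 0.835 of the group's range, above Dixon's 95% limit for 4 samples. In all, 20 groups of 4 arrays were looked at in this way, and chance gives about 1 in 20. Control replicate 1 was also the highest of its group for this share, at 37.6%.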

How the results depend on the processing

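The log2 difference of every member stayed above 0 in all 29 settings tried for each, 145 of 145 values. The replicate block, the other detection filters and both forms of the methods' t-test cannot change this difference. Their values repeat the main fit and add nothing to the count. The other settings reuse the same 8 arrays and are not independent. How many of all 187 probes kept their direction was not counted. With single arrays left out, the log2 difference ranged from 0.82 to 1.50 for dre-miR-430a and 0.61 to 1.09 for dre-miR-430b. It ranged from 1.11 to 1.80 for dre-miR-430c, 0.53 to 1.43 for dre-miR-430i and 0.67 to 1.18 for dre-miR-430j. Arrays kept in such fits were not normalized again, and the filter stayed that of all 8 arrays. The count of members at an unadjusted p under 0.05, 4 in the main fit, was 1 without normalization between arrays. It was 2 without MC-RR replicate 2 and control replicate 4 together, where all probes were not counted. With the blank median subtracted it was 3. With quantile normalization, median scaling and 5S scaling it was 5, while 12, 11 and 15 of all 187 probes passed. Leaving out 1 array gave 1 to 5 members, and leaving out both arrays of a replicate number gave 1 to 5, with dre-miR-430c among them each time. Over all 187 probes the count of 16 became 3 without normalization between arrays, 10 with the blank median subtracted, 29 with a paired form of the methods' t-test and 30 with the replicate block, 7 to 18 without 1 array and 8 to 16 without both arrays of a number. The replicate block changed no member's call. The mean log2 difference of the members, 1.08, was 1.75 with scaling to 5S rRNA. After adjustment 0 members passed in every setting but 5S scaling, where all 5 did (not counted for the joint removal of arrays, and with the filter on all 8 arrays dre-miR-430c was not among the 66 probes adjusted). Over all probes 1 passed without background correction, 1 with an offset of 1, 1 in the deposited values and 7 with 5S scaling. The methods' t-test, unpaired, called 16 probes and 3 members, and both of its forms called 0 after Benjamini-Hochberg adjustment. Of the 10 pairs of members, 0 separated the groups with all arrays, and 0 to 1 did so with 1 array or both arrays of a number left out. Shares separated the groups for 0 of 5 members in every setting tried. The cause of these shifts was not tested. Scaling to 5S rRNA, the worm-probe background and the joint removal of those 2 arrays were chosen after seeing the data. Signal near the blank spots limits dre-miR-430c on control replicate 4.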
